A study of Mus musculus with 6 samples.

Results

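The regions described here are the background peaks of middle strength in an iCLIP control library, at places where the Quaking (Qk) pull-down has no peak. They were chosen from the anti-HA control list by 2 measured values: each held 10 to 26 reads, and no same-strand anti-PanQk peak overlapped it or lay within 100 nt. On the nuclear chromosomes, with each interval counted once, 3748 of the 8051 control peaks met the rule (46.6%). They are called control-only peaks below, and the read number and the absence of a nearby anti-PanQk peak are therefore descriptions and not findings. Both lists together held 30984 entries before repeats and the mitochondrial chromosome were set aside.

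Both lists came from undifferentiated C2C12 myoblasts, an established line of mouse muscle precursors kept in 10% serum. All cells were irradiated with 400 mJ of ultraviolet light. One library was pulled down with an antibody against HA, a short viral peptide used as a protein tag, and gave the control list; no label says that the cells carried such a tag. The other used an antibody to Qk proteins as a family (anti-PanQk). A further 4 libraries, not analysed here, are labelled anti-PanQk in myotubes differentiated for 72 h (2 libraries), anti-Qk6 in myoblasts (1) and anti-Qk7 in myoblasts (1). With 1 library per antibody used here, there is no replicate and no test between conditions. Intervals are 95% intervals that cover counting error only and take peaks as independent.

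In iCLIP, proteins are crosslinked to bound RNA by light, immunoprecipitated with the attached fragments, and the fragments are sequenced to locate the contacts. A pull-down with an antibody that has no target of interest collects whatever RNA sticks to beads, membrane or other proteins, and so maps the background against which a real footprint is read. Qk proteins bind RNA through a STAR-type KH domain and act in splicing, transcript stability and translation. A peak caller outlines stretches where fragments pile up, and the width of a stretch and its distance to the next describe it beyond its read number.

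Genes are listed as Ensembl IDs, and 0 of the 8233 IDs could be paired with a symbol, so loci are given by ID and by mm9 position (1-based). For the same reason muscle and other cell type markers could not be checked. No exon, intron or promoter is assigned, and no sequence is shown, because the reference used here is of another build. The library depth is unknown; the nuclear control peaks held 144365 reads as listed and the nuclear anti-PanQk peaks 183581, and read numbers are not scaled between the lists.

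The control list as a whole had a second rise in its read numbers, with 203 peaks at 8 reads and 556 at 18, and the class chosen here spans it. Control peaks with no anti-PanQk neighbour numbered 501 at 3 reads, 109 at 7 and 428 at 18. Control peaks near an anti-PanQk peak varied less over these read numbers, with 112 at 10 reads, 89 at 14, 130 at 17 and 128 at 18. The control-only peaks of the class held a mean of 16.7 reads (SD 3.5 over 3748 peaks) and a median of 17 (quartiles 14 and 19). The most frequent number was 18 reads, with 428 peaks, and 412 had 17. Numbers fell off on both sides, to 143 peaks at 10 reads and 13 at 26. Just outside the class, 122 control peaks without an anti-PanQk neighbour held 9 reads and 9 held 27. At the distance limit, 17 peaks of the class lay 101 to 110 nt from an anti-PanQk peak and were kept, and 20 lay 91 to 100 nt away and were not. Anti-PanQk peaks without a control neighbour ran differently: 211 held 10 reads, 47 held 18 and 13 held 26, with no comparable rise. Of the control peaks of all read numbers, 63.9% had no anti-PanQk peak within 100 nt, and of those with 10 to 26 reads 72.5%. In the anti-PanQk list 48.5% of peaks in the same class (1302 of 2685) had no control peak within 100 nt. The rule used these contrasts, so nothing is read from the shares.

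**Figure D1:**
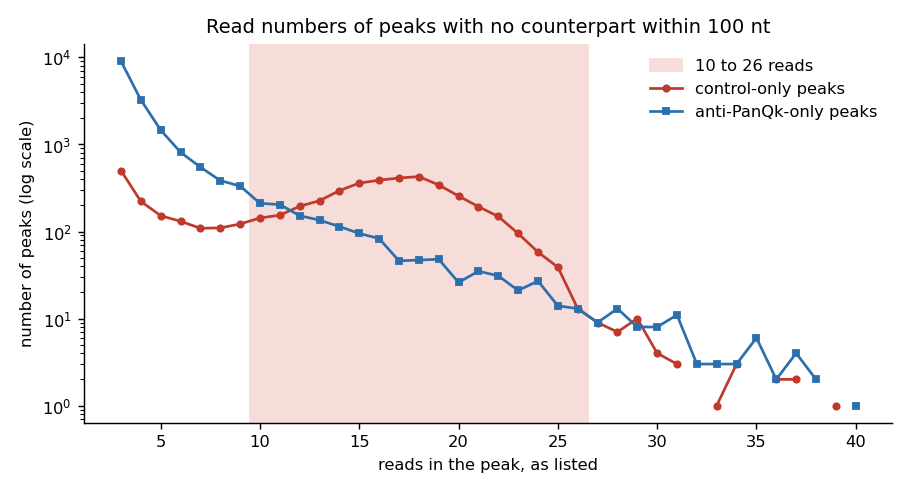
Number of peaks (log scale) against the reads in the peak, for control-only peaks and anti-PanQk-only peaks, each with no peak of the other list within 100 nt on the same strand. The control-only curve rises within the shaded class to 428 peaks at 18 reads, whereas the anti-PanQk-only curve falls from 211 at 10 reads to 47 at 18.

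The rule confines the read number to a narrow range, so its medians are given as a description and nothing is read from them. The median was 17 reads where the gene ID held 1, 2, 3 to 4, or 5 or more of the peaks. It was also 17 in every band of distance to the nearest anti-PanQk peak, from 101 to 1000 nt (795 peaks) to over 100000 nt (493 peaks). It was 17 both for the 825 peaks under IDs with no anti-PanQk peak and for the 2923 under IDs with some. Within the 38 gene IDs that held 5 or more, the SD of the read number had a median of 3.41 and ran from 1.14 to 5.32, against 3.5 over all. Every deposited p-value of the 3748 peaks lay between 3.58e-29 and 1.20e-08, and together they carried 62722 of the 144365 reads in nuclear control peaks (43.4%).

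Control-only peaks were narrow. They had a median width of 21 nt (20 to 22; quartiles 10 and 42 nt), and almost none was wide: 166 of 3748 (4.43%, 3.79 to 5.14) exceeded 44 nt and 49 (1.31%, 0.969 to 1.72) exceeded 50 nt. Anti-PanQk-only peaks with the same 10 to 26 reads had a median of 74 nt (72 to 77; quartiles 54 and 101), and 1134 of 1302 (87.1%, 85.2 to 88.9) exceeded 44 nt. The quartile ranges of these control-only and anti-PanQk-only peaks do not overlap. Over all 2685 anti-PanQk peaks of the class, with or without a control neighbour, the median was 57 nt (56 to 59). Their quartiles, 28 and 85 nt, give a range that overlaps the control-only range. Within the class the median read number was 17 for control-only and 13 for anti-PanQk-only peaks. Control peaks of the class that lay near an anti-PanQk peak fell between, with a median of 25 nt (23 to 27) and 306 of 1421 over 44 nt (21.5%, 19.4 to 23.8). Width was not part of the rule, but the sets come from 1 library each, and how the peak caller sets a width from the spread and the number of reads was not tested.

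A single width was by far the most frequent. Of the control-only peaks, 533 were exactly 43 nt wide, 198 were 42 and 168 were 44, together 899 (24%, 22.6 to 25.4). The adjoining widths were rare, with 36 peaks of 41 nt and 34 of 45 nt. Among anti-PanQk-only peaks of the class, 34 of 1302 (2.61%, 1.82 to 3.63) had these widths, and among control peaks near an anti-PanQk peak 131 of 1421 (9.22%, 7.77 to 10.8). Anti-PanQk-only peaks of 3 to 9 reads had them in 1826 of 15854 (11.5%, 11 to 12). Many of the other control-only peaks were short: 1364 (36.4%, 34.9 to 38.0) were at most 12 nt wide, with 186 of 5 nt, 178 of 8 nt, 177 of 11 nt and 173 of 12 nt, against 35 of 1302 (2.69%, 1.88 to 3.72) of the anti-PanQk-only peaks. Short peaks were about as frequent among control peaks near an anti-PanQk peak, with 485 of 1421 (34.1%, 31.7 to 36.7), and made up 4633 of 15854 (29.2%, 28.5 to 29.9) anti-PanQk-only peaks of 3 to 9 reads. Over all anti-PanQk peaks of the class, with or without a control neighbour, they made up 440 of 2685 (16.4%, 15 to 17.8). Another 1319 control-only peaks (35.2%) lay between 13 and 41 nt.

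**Figure D2:**
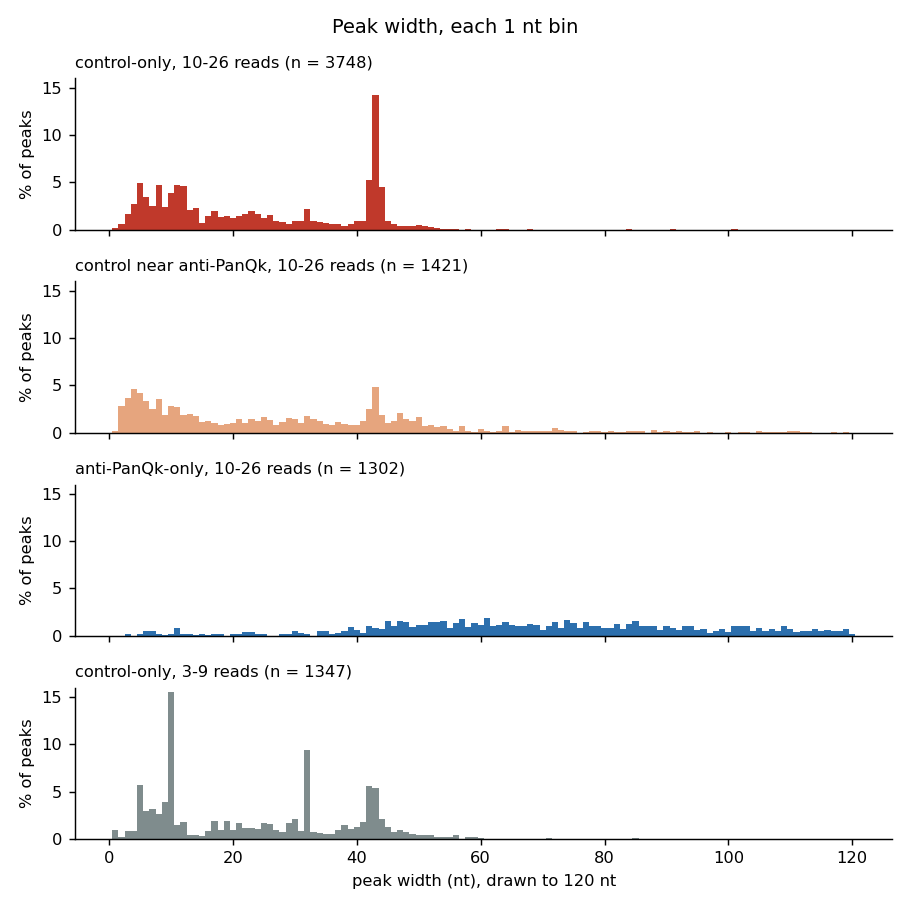
Share of peaks at each width in nt, in 4 panels, for control-only peaks, control peaks of the class within 100 nt of an anti-PanQk peak, anti-PanQk-only peaks of the class, and weaker control-only peaks. The control-only panel has a spike at 42 to 44 nt (24% of peaks) and 4.43% of peaks beyond it, while the anti-PanQk-only panel is spread widely with a median of 74 nt.

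The share of these widths was highest at 18 to 21 reads. Peaks of 42 to 44 nt made up 18.5% (15.7 to 21.6) of the 718 control-only peaks with 10 to 13 reads and 23.9% (21.7 to 26.2) of the 1456 holding 14 to 17. At 18 to 21 reads they made up 31.1% (28.5 to 33.7) of 1220 peaks, and at 22 to 26 reads 11% (7.95 to 14.8) of 354. The share did not order with distance from anti-PanQk peaks: it was 22% (19.2 to 25.1) at 101 to 1000 nt, 24.8% at 1001 to 10000 nt, 23.2% at 10001 to 100000 nt and 27.2% (23.3 to 31.3) beyond. IDs without any anti-PanQk peak gave 24.5% (21.6 to 27.6), and IDs with some gave 23.8% (22.3 to 25.4).

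Each peak also carries a marked stretch of at most 4 nt, listed by the authors as the thick part of the interval. In the 899 control-only peaks of 42 to 44 nt it began exactly 20 nt from the upstream edge in 505 (56.2%, 52.9 to 59.4), that is near the middle, against 49 of 131 (37.4%, 29.1 to 46.3) in control peaks of that width near an anti-PanQk peak. In control-only peaks of that width with 3 to 9 reads the share was 37.1% (30 to 44.8). Over all anti-PanQk peaks of the class with that width it was 6 of 68 (8.82%, 3.31 to 18.2). Starts 19 to 21 nt in made up 65.7% (62.5 to 68.8) in the class and 63.4% (55.8 to 70.6) in those weaker control-only peaks. They made up 46.6% (37.8 to 55.5) near an anti-PanQk peak and 42.7% (40.4 to 45) in anti-PanQk-only peaks of 3 to 9 reads. Over all anti-PanQk peaks of the class they made up 25% (15.3 to 37). In the 1364 control-only peaks of at most 12 nt it lay at the upstream edge in 987 (72.4%, 69.9 to 74.7), against 278 of 485 (57.3%, 52.8 to 61.8) near an anti-PanQk peak. Among short anti-PanQk peaks of the class the share was 156 of 440 (35.5%, 31 to 40.1) over all. It was 15 of 35 (42.9%, 26.3 to 60.6) for those without a control neighbour. In short peaks of 3 to 9 reads the share was higher in both lists, with 520 of 537 (96.8%, 95 to 98.1) control-only and 4385 of 4633 (94.6%, 94.0 to 95.3) anti-PanQk-only peaks.

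The widest control-only peaks were few and scattered. The widest, 141 nt with 12 reads, lay on the minus strand of chromosome 9 (123700912 to 123701052, ENSMUSG00000025241). The next was 132 nt with 18 reads on the plus strand of chromosome 6 (4491385 to 4491516, ENSMUSG00000029661). One of 101 nt with 24 reads lay on the plus strand of chromosome 13 (31420098 to 31420198, ENSMUSG00000087140), 1178337 nt from the nearest anti-PanQk peak of that strand. One of 91 nt with 14 reads lay on the plus strand of chromosome 3 (84649123 to 84649213, ENSMUSG00000028086).

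Most gene IDs held a single control-only peak, and the same was true in the compared sets of the same read class. The 3748 peaks fell under 2632 gene IDs, of which 1938 (73.6%, 71.9 to 75.3) held 1, 475 held 2, 135 held 3, 46 held 4 and 38 held 5 or more. The share with 1 peak was 72.8% (69.6 to 75.8) of 830 IDs for control peaks near an anti-PanQk peak and 71.0% (67.7 to 74.1) of 807 IDs for anti-PanQk-only peaks of the class. At 3 to 9 reads it was 90.3% (88.5 to 91.9) of 1196 IDs for control-only peaks. For anti-PanQk-only peaks of 3 to 9 reads it was 47% (45.7 to 48.2) of 6161 IDs. The sets differed in the IDs with most peaks. The 10 richest IDs together held 121 peaks (3.23%, 2.69 to 3.85). In anti-PanQk-only peaks of the class the 10 richest IDs held 98 of 1302 (7.53%, 6.15 to 9.10), and 212 of those peaks (16.3%, 14.3 to 18.4) lay in IDs with 5 or more, against 271 of the 3748 control-only peaks (7.23%, 6.42 to 8.11). Among control peaks near an anti-PanQk peak the 10 richest IDs held 149 of 1421 (10.5%, 8.94 to 12.2). There 372 (26.2%, 23.9 to 28.5) lay in IDs with 5 or more. At 3 to 9 reads such IDs held 1.63% (1.03 to 2.46) of control-only and 42.3% (41.5 to 43.1) of anti-PanQk-only peaks. The sets differ in size, which also bears on the numbers per ID. Of the 2632 IDs, 1945 (73.9%) also held an anti-PanQk peak farther than 100 nt away, and 687 (26.1%, 24.4 to 27.8) held none, of which 601 had a single control-only peak. For 552 peaks (14.7%) the control-only peak was the only entry under its ID in either list. The rule leaves out control peaks near anti-PanQk peaks, which bears on these shares. The same shares over all control gene IDs were not worked out, so nothing is read from them. Only 67 of the 3748 intervals were listed under more than 1 ID.

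Strands and chromosomes were covered broadly. The plus strand held 1860 peaks (49.6%, 48.0 to 51.2). Chromosome 2 held the most, 296 (7.90%, 7.05 to 8.81) under 216 IDs, against 5.35% of the other nuclear control peaks and 6.64% of the anti-PanQk peaks. Chromosome 11 held 287 (7.66%, 6.83 to 8.56), below its 11.6% of the other control peaks and 10.3% of the anti-PanQk peaks. Chromosome 19 held 188 (5.02%, 4.34 to 5.76), against 3.53% of the other control and 3.49% of the anti-PanQk peaks. The X chromosome held 118 (3.15%, 2.61 to 3.76), against 4.07% of the other control and 4.78% of the anti-PanQk peaks. These shares depend on which loci have anti-PanQk peaks nearby, since the rule leaves out control peaks there. Of the 188 on chromosome 19, 30 lay under ENSMUSG00000092341 and 18 under ENSMUSG00000069833.

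Control-only peaks lay far apart. The nearest other control-only peak on the same strand was a median of 62134 nt away (56291 to 69786), and 366 of 3748 (9.77%, 8.83 to 10.8) had one within 1000 nt. Within 100 nt the number was 151 (4.03%, 3.42 to 4.71). Anti-PanQk-only peaks of the class, although fewer, had a median of 1253 nt (681 to 2498), and 634 of 1302 (48.7%, 45.9 to 51.4) had another within 1000 nt and 339 (26%, 23.7 to 28.5) within 100 nt. Control peaks near an anti-PanQk peak had a median of 770 nt, with 727 of 1421 (51.2%, 48.5 to 53.8) within 1000 nt. Since the rule removes control peaks close to anti-PanQk peaks, it also removes control peaks from stretches where both lists are dense. Counting control peaks of any read number as neighbours, 549 of the 3748 (14.6%, 13.5 to 15.8) had one within 1000 nt.

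**Figure D3:**
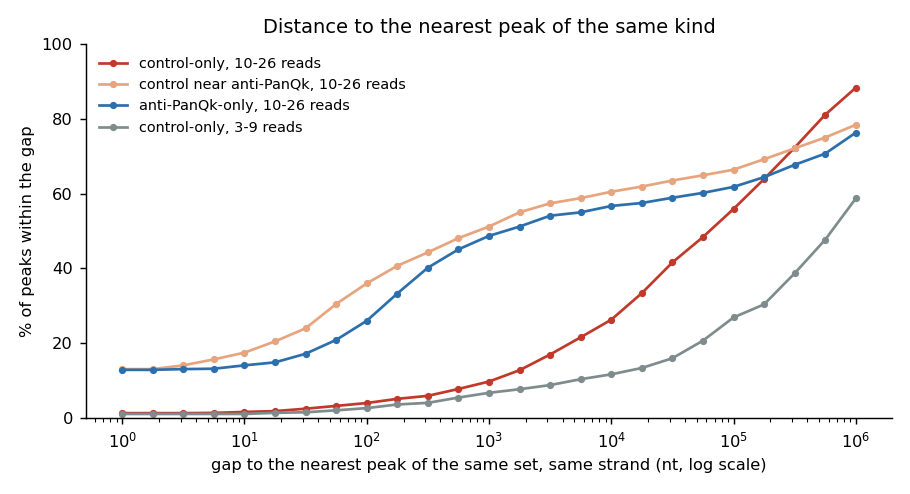
Share of peaks whose nearest peak of the same set on the same strand lies within a given gap (nt, log scale). At 1000 nt the control-only curve stands at 9.77%, against 51.2% for control peaks near an anti-PanQk peak and 48.7% for anti-PanQk-only peaks.

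When control-only peaks within 100 nt of one another were chained, 3597 stayed single and 69 runs formed, of which 61 held 2 peaks, 4 held 3, 3 held 4 and 1 held 5. Anti-PanQk-only peaks gave 963 singles and 139 runs of up to 8, and control peaks near an anti-PanQk peak 909 singles and 182 runs of up to 15. There were 13 overlapping pairs of control-only peaks, and in all 13 the 2 peaks were listed under different gene IDs. The run of 4 on chromosome 13 (plus strand, 49779707 to 49779764) held such pairs, with 2 intervals each under ENSMUSG00000037851 and ENSMUSG00000087963 of 16 and 14 reads. The run of 4 on chromosome 7 (minus strand, 106631187 to 106631419) held 3 under ENSMUSG00000030744 and 1 nearly identical interval under ENSMUSG00000065822, with 10 to 20 reads. The remaining 2 long runs lay under ENSMUSG00000092341.

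Where a gene ID held several control-only peaks, they were mostly far from each other. In the 694 IDs with 2 or more, the stretch they covered had a median of 18646 nt (quartiles 4470 and 51865), and the gap between consecutive ones a median of 9983 nt (1889 and 30401; 1116 gaps). The distance to the nearest anti-PanQk peak had a median of 7724 nt (1333 and 35107) and ran from 101 to 4852691 nt. An anti-PanQk peak lay within 1000 nt for 795 peaks (21.2%) and within 10000 nt for 2012 (53.7%).

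Place in the gene span was measured from the first to the last peak of either list under the ID, in the direction of the strand, for spans of at least 1000 nt. It is not the annotated gene, and 2050 of the 3748 control-only peaks (54.7%) themselves set an end of their span. Of 3053 control-only peaks with such a span, 938 (30.7%, 29.1 to 32.4) lay in the upstream 10%, 910 (29.8%, 28.2 to 31.5) in the downstream 10% and 1205 (39.5%, 37.7 to 41.2) between, with a median place of 0.538 (0.502 to 0.579). Anti-PanQk-only peaks of the class were concentrated downstream: 715 of 1067 (67.0%, 64.1 to 69.8) lay in the last 10% and 94 (8.81%, 7.18 to 10.7) in the first, with a median place of 0.965 (0.959 to 0.969). Control peaks near an anti-PanQk peak also leaned downstream, with 505 of 1049 (48.1%, 45.1 to 51.2) in the last 10%. Anti-PanQk-only peaks of 3 to 9 reads were nearer to the control-only peaks, with 5484 of 13071 (42%, 41.1 to 42.8) in the last 10% and 3178 (24.3%, 23.6 to 25.1) in the first.

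A span drawn from anti-PanQk peaks alone does not let the control-only peaks set its ends. Of 2154 control-only peaks under IDs with such a span, 832 (38.6%, 36.6 to 40.7) lay outside it, 535 upstream (24.8%, 23.0 to 26.7) at a median of 10978 nt beyond the end and 297 downstream (13.8%, 12.4 to 15.3) at a median of 4381 nt. Of control peaks near an anti-PanQk peak 65 of 988 (6.58%, 5.11 to 8.31) lay outside, a value that their nearness to anti-PanQk peaks keeps low. The 1322 control-only peaks inside were spread along it, with 6.96% to 9.76% in each of the first 7 bins of 10%, 11.3% and 11.9% in the next 2 and 19.7% (17.6 to 21.9) in the last. The median place was 0.631 (0.596 to 0.662). Anti-PanQk-only peaks inside the same kind of span had 64.1% (61.1 to 67.0) in the last 10%, but they include the peaks that set its ends, and the rule keeps control-only peaks more than 100 nt from the peaks that set those ends.

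**Figure D4:**
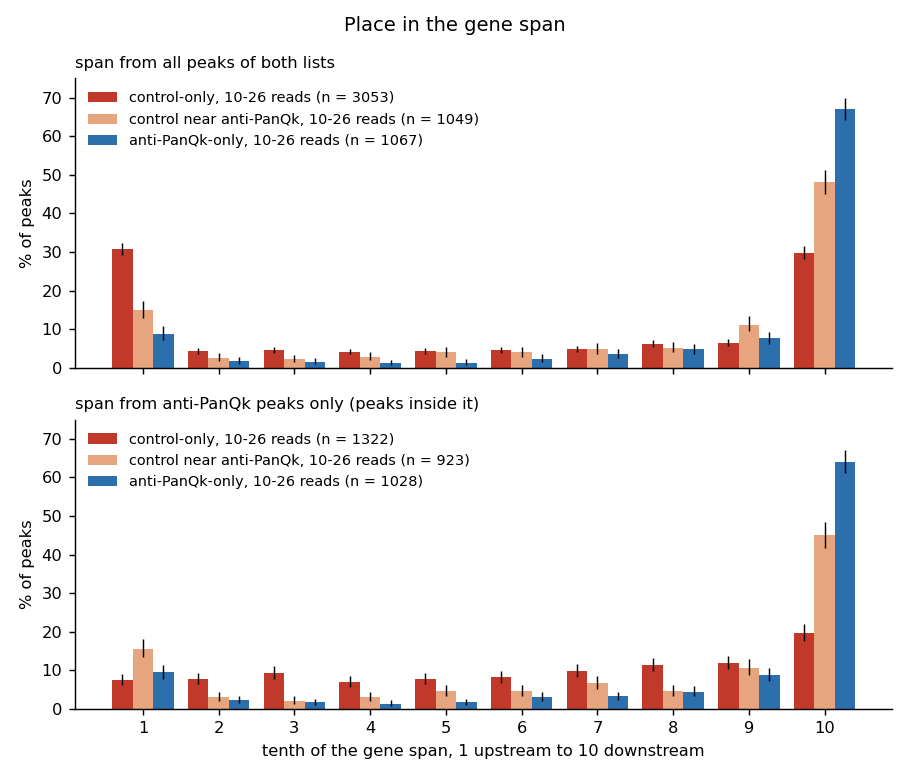
Share of peaks in each 10% of the gene span, upstream to downstream, for control-only peaks, control peaks near an anti-PanQk peak and anti-PanQk-only peaks, with exact 95% intervals as error bars. In the upper panel 30.7% and 29.8% of control-only peaks lie in the first and last 10%, whose ends they often set themselves. In the lower panel their share in the last 10% is 19.7%, where anti-PanQk-only peaks reach 64.1%.

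The ID richest in control-only peaks was ENSMUSG00000092341, on the minus strand of chromosome 19 (5796115 to 5802534). It held 30 of them within 6420 nt, and the anti-PanQk list used here held 0 peaks under this ID, the nearest of that strand lying 23525 nt away. The 30 had 12 to 26 reads with a median of 19, and of the 5 other control peaks there 4 had under 10 reads and 1 had over 26. Widths ran from 4 to 47 nt with a median of 13.5, and 0 of the 30 were 42 to 44 nt wide, unlike the 24% over all control-only peaks. The gaps between neighbours had a median of 123 nt and a highest value of 669 nt, and 14 of the gaps were at most 100 nt. The longest run, of 5 peaks from 5796115 to 5796490, had 14, 21, 19, 18 and 15 reads and widths of 26, 32, 17, 7 and 40 nt in order of position. A run of 4 (5797886 to 5798115) had 13, 22, 16 and 19 reads. Of the 30, 2 lay in the upstream 10% of the stretch, 6 in the downstream 10% and 22 between.

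A second ID without any anti-PanQk peak had 8 control-only peaks and no other control peak: ENSMUSG00000029661 on the plus strand of chromosome 6 (4458927 to 4491516). In order of position they held 23, 18, 16, 24, 15, 20, 18 and 18 reads, with gaps of 411 to 12404 nt, and the nearest anti-PanQk peak of that strand lay 217756 nt away. ENSMUSG00000063229 (chromosome 7, plus strand, 54104410 to 54110838) carried 5, with 11, 17, 16, 12 and 16 reads. ENSMUSG00000021326 (chromosome 13, plus strand, 21272430 to 21284647) carried 4, with 15, 14, 20 and 11 reads, all 10 to 12 nt wide. ENSMUSG00000061410 (chromosome 8, minus strand, 124122612 to 124132495) carried 4, with 11, 12, 15 and 15 reads. ENSMUSG00000034908 (chromosome 9, minus strand, 45746085 to 45762977) carried 3, with 16, 17 and 22 reads and widths of 4 to 11 nt. In all 4 of these smaller loci every listed control peak belonged to the class.

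The other 8 of the 10 richest IDs also carried anti-PanQk peaks. ENSMUSG00000061731 (chromosome 15, minus strand, 52895812 to 53177283) carried 12 control-only peaks over 249589 nt beside 40 anti-PanQk peaks of at most 8 reads. The 12 had 18, 18, 16, 16, 17, 22, 18, 21, 18, 14, 20 and 19 reads, 6 of them were 42 to 44 nt wide, and the median gap was 13853 nt. ENSMUSG00000028649 (chromosome 4, minus strand, 123027493 to 123325784) carried 9 over 195289 nt beside 21 anti-PanQk peaks of at most 8 reads. The 9 had 15 to 22 reads, and 5 were 42 to 44 nt wide. At both IDs every control-only peak held more reads than the strongest anti-PanQk peak, as listed and unscaled for the unknown depth. The rule's minimum of 10 reads fixes that order wherever every anti-PanQk peak holds under 10, so nothing is read from it. ENSMUSG00000026131 on the plus strand of chromosome 1 (34034570 to 34365375) was similar in reads, with 9 control-only peaks of 11 to 22 reads and 17 anti-PanQk peaks of at most 5, and 1 of its 9 was 42 to 44 nt wide.

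At the remaining 5 IDs the strongest anti-PanQk peak held 9 to 188 reads. ENSMUSG00000069833 (chromosome 19, plus strand, 9063774 to 9094448) carried 18 control-only peaks of 11 to 24 reads beside 44 anti-PanQk peaks of at most 19 reads. The median distance of the 18 to an anti-PanQk peak was 350 nt and the shortest 102 nt, and 12 further control peaks of the class lay too near an anti-PanQk peak to count. ENSMUSG00000022565 (chromosome 15, minus strand, 76001426 to 76035937) carried 11 of 12 to 19 reads beside 81 anti-PanQk peaks of at most 87 reads. There 9 of the 11 lay between the first and last 10% of the span, and 79 of the 81 anti-PanQk peaks lay in the last 10%. Of the 16 other control peaks at this ID, 13 also lay in the last 10%, and 7 of the 16 held 10 to 26 reads but lay within 100 nt of an anti-PanQk peak. The rule removes control peaks from such a stretch, so nothing is read from where the 11 lie.

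ENSMUSG00000031328 (chromosome X, minus strand, 71468933 to 71491820) carried 10 control-only peaks of 10 to 23 reads beside 13 anti-PanQk peaks of at most 9. ENSMUSG00000022443 (chromosome 15, minus strand, 77591032 to 77672543) carried 8 of 10 to 21 reads beside 14 anti-PanQk peaks of at most 40, and 4 of the 8 were 42 to 44 nt wide. ENSMUSG00000005610 (chromosome 7, minus strand, 118214267 to 118226394) carried 6 of 15 to 26 reads beside 12 anti-PanQk peaks of at most 188. At these 3 IDs 8 of 10, 7 of 8 and 5 of 6 control-only peaks lay between the first and last 10% of the span. That stretch is itself most of the span, and the rule removes control peaks near anti-PanQk peaks, so nothing is read from these counts.

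**Figure D5:**
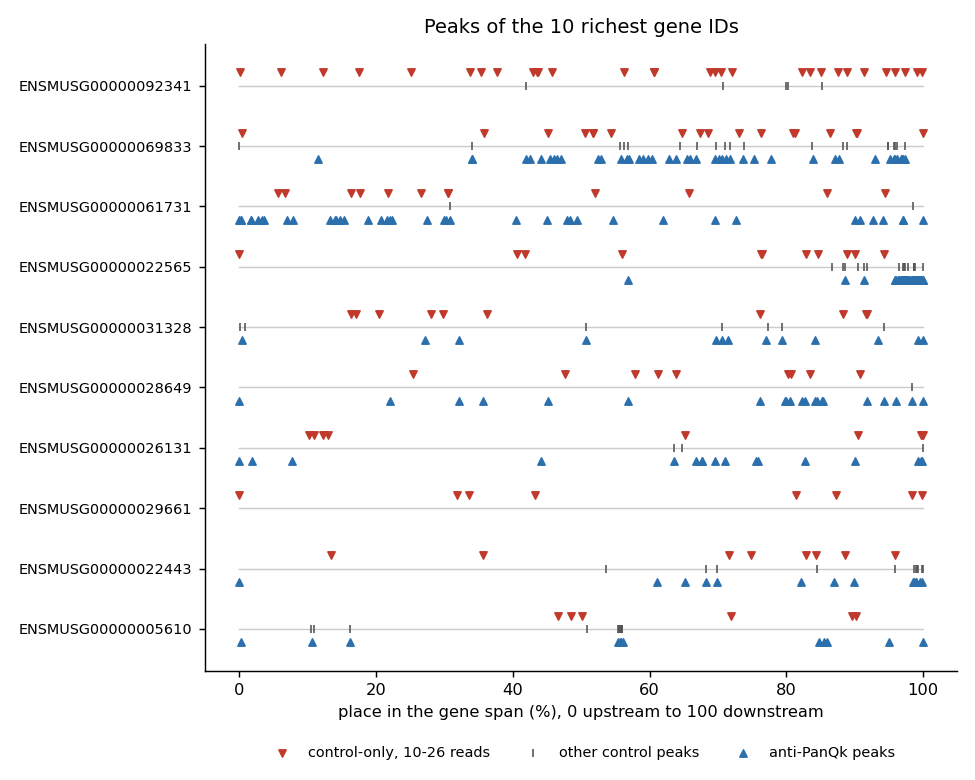
Place of every listed peak along the span of the 10 gene IDs with the most control-only peaks, in percent from the upstream to the downstream end, with control-only peaks above each line, other control peaks on it and anti-PanQk peaks below it. ENSMUSG00000092341 and ENSMUSG00000029661 have 30 and 8 control-only peaks and no anti-PanQk peak, and at ENSMUSG00000022565 the last 10% holds 79 of 81 anti-PanQk peaks and 13 of 16 other control peaks, a stretch from which the rule removes control peaks.

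Control-only peaks below the class were also narrow and scattered. The 1347 nuclear control peaks of 3 to 9 reads with no anti-PanQk peak within 100 nt had a median width of 22 nt (20 to 25), and 90 (6.68%, 5.41 to 8.15) exceeded 44 nt, against 4.43% of the 3748. Their widths had other favoured values, with 209 of 10 nt and 127 of 32 nt, and 175 (13%, 11.2 to 14.9) of 42 to 44 nt. Of them 91 (6.76%, 5.47 to 8.23) lay within 1000 nt of another, against 9.77% (8.83 to 10.8) of the class, but the sets differ in size, which also bears on this share. In the first and last 10% of the span lay 31.5% and 33.8%, close to the 30.7% and 29.8% of the class. Under spans drawn from anti-PanQk peaks 40.2% (36.3 to 44.2) of them lay outside, against 38.6% (36.6 to 40.7) of the class. Anti-PanQk-only peaks of 3 to 9 reads had a median of 32 nt, and 19.8% (19.2 to 20.5) of 15854 exceeded 44 nt. The control-only medians at 10 to 26 and 3 to 9 reads were thus 21 and 22 nt, and the anti-PanQk-only medians 74 and 32 nt.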

How the data were processed

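The files are 2 peak lists, each of 1 iCLIP library, matched to a sample through the track line. The peaks were called with CLIPper on mm9, per the file headers. The submitters' processing notes name TopHat, Bowtie2 and mm9, with no version given in the sources used here. Each deposited entry gives an interval, a thick part, a p-value from the authors' peak caller and a name whose last part was taken as the number of reads, at least 3 in both lists. The labels place a molecular identifier at the start of the read, and whether reads were collapsed by it is not stated. The depth is unknown. Gene IDs are given without their version suffix.

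Entries on the mitochondrial chromosome were left out (8261 control and 22074 anti-PanQk entries remained), and each interval was counted once, under its first ID in alphabetical order. Distance was the number of nucleotides between intervals on the same strand. Shares have exact Clopper-Pearson 95% intervals and medians order-statistic intervals. No test was run. Named IDs are the 10 with the most control-only peaks, the 6 with the most among IDs with no anti-PanQk peak, those of the 4 longest runs and those of the 4 widest peaks. The peaks, comparisons and rule for names were chosen with earlier results of these data known. Gene lists of 228 symbols could not be used, since 0 of 8233 IDs were paired with a symbol. Python 3.11.15 with pandas 2.3.3, numpy 2.4.6 and scipy 1.17.1 was used, and the interval code was checked on made-up peaks.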

Additional observations from a re-analysis of the deposited data

How the results depend on the processing

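No paired analysis was possible because 1 library stands behind every antibody here, so no library could be left out either. Annotated genes were not run as spans, since no mm9 annotation was used here. The counts of 3748 peaks and 2632 gene IDs stayed within 1.5 times under all 7 alternatives run for them, and the median width stayed between 21 and 22 nt under all 9. The share of peaks with another within 1000 nt (9.77%) was 13.7% with overlap as the only limit, 6.81% with a distance of 1000 nt, 12.8% with entries as listed, 7.43% after merging within 50 nt and 8.08% without the 10 richest gene IDs, a setting added after the data were seen. The share of IDs with 1 peak (73.6%) was 71.5% with overlap only and 77.1% with 1000 nt, and that of IDs without an anti-PanQk peak (26.1%) was 24.3% and 31%. The share in the last 10% of the span (29.8%) was 26% with 1000 nt and 19.7% with spans from anti-PanQk peaks only. The median place (0.538) was 0.579 with overlap only, 0.429 with 1000 nt and 0.631 with spans from anti-PanQk peaks only. The distance, the listing and the span define which peaks enter, and other causes were not tested. Read classes of 12 to 24 and 8 to 30, either strand, the mitochondrial chromosome kept and a minimum span of 10000 nt moved no share or median beyond its interval. Depth is unknown, and 1 library gives no replicate error.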

Other observations

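Of the 5141 nuclear control peaks with no same-strand anti-PanQk peak within 100 nt, 46 held over 26 reads. Their share among all control peaks of over 26 reads was not worked out. The distance limit is that of the rule, so nothing is read from the number. The 46 held 27 to 86 reads, fell under 45 gene IDs and had a median width of 18.5 nt (7 to 33). Of the 46, 4 (8.70%, 2.42 to 20.8) were 42 to 44 nt wide.

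On the mitochondrial chromosome, which the rule leaves out, 85 control peaks held 10 to 26 reads, and 10 of them (11.8%, 5.79 to 20.6) had no anti-PanQk peak within 100 nt. The share was 72.5% of the nuclear control peaks in that class. These shares depend on how densely anti-PanQk peaks lie on a chromosome, and the rule uses the same distance limit, so nothing is read from the contrast.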
